A study of Mus musculus with 9 samples.

Results

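The dual-specificity MAPK phosphatases were examined through 9 genes, Dusp1, Dusp2, Dusp4, Dusp5, Dusp6, Dusp7, Dusp8, Dusp10 and Dusp16. They were chosen by gene name from a table of 16921 genes, and all 9 were found, each as a single gene. The choice did not use their measured values, but it was made with earlier results of these data known. RiboSeq, which sequences the mRNA fragments protected by ribosomes, was performed on macrophages of 3 conditions with 3 libraries each. All 9 libraries came from TTP-deficient bone marrow-derived macrophages (BMDMs) that had been immortalized with the oncogenes hcmyc and hRasG12V, so that every condition, the control included, carried an activated Ras. CD11b- and F4/80-positive cells were transduced with a tet-inducible vector for GFP alone, for GFP-TTP, or for GFP-TTP-AA, in which alanine replaces both serines that MK2 phosphorylates (S52A, S178A). All cells received doxycycline (1 μg/ml) for 6 h in total and LPS (1 μg/ml) for 1 h. Each condition is a separately transduced and sorted cell line, so that the expressed protein and any other difference between the lines cannot be told apart. There were no libraries without LPS, without doxycycline or from macrophages with an intact TTP gene.

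MAPK phosphatases remove the phosphates from the threonine and tyrosine of the MAP kinase activation loop and thereby end the signal of ERK, JNK and p38. Dusp1, Dusp2, Dusp4 and Dusp5 are nuclear enzymes that are induced by the same signals they shut off. Dusp6 and Dusp7 are cytoplasmic and prefer ERK, whereas Dusp8, Dusp10 and Dusp16 prefer JNK and p38. In macrophages, Dusp1 is known as a brake on p38 after Toll-like receptor activation. TTP is an RNA-binding protein that recognises AU-rich elements in 3′UTRs and promotes the decay of the bound mRNA. MK2 is a kinase activated by p38, and its phosphorylation of TTP restrains that decay.

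Because TTP binds AU-rich elements, the annotated 3′UTRs of the 9 genes were searched on the transcript strand for ATTTA and for the longer TATTTAT, which contains ATTTA. The longest annotated 3′UTR of each gene in GENCODE vM21 (GRCm38) was used. At least 1 ATTTA was present in 8 of the 9 genes, and in 70.6% of the 9963 genes with an annotated 3′UTR that were kept for testing. At least 1 TATTTAT was present in 3 of the 9 genes (Dusp1, Dusp2 and Dusp8) and in 30.6% of the kept genes. Dusp1 had 3 copies of TATTTAT in a 3′UTR of only 690 nt, and 4.04% of the kept genes had as many. Dusp8 had 2 copies in 2370 nt and Dusp2 had 1 copy in 581 nt. Dusp6 had no TATTTAT and 1 ATTTA in 1190 nt, and Dusp7 had neither motif in 1778 nt. The copies of TATTTAT are printed below with 10 bases on each side, in the direction of the transcript and with the motif in capitals. The single ATTTA of Dusp6 follows for contrast, since Dusp6 is the member whose level had the largest range over the conditions. Each printed stretch lies within 1 exon. A match describes the sequence and does not show that TTP is bound there.
Dusp1, chr17:26506160-26506186, minus strand: agctggtcctTATTTATttaacacccc
Dusp1, chr17:26505871-26505897, minus strand: tttttaccttTATTTATttttgtgtag
Dusp1, chr17:26505675-26505701, minus strand: tatgtttgttTATTTATgatctgaagt
Dusp2, chr2:127338305-127338331, plus strand: cagcactttaTATTTATatagaacatt
Dusp8, chr7:142081716-142081742, minus strand: ttcgatttttTATTTATttaagctagt
Dusp8, chr7:142080143-142080169, minus strand: gaggtttaagTATTTATtattattggt
Dusp6, chr10:99267422-99267446, plus strand: ttgagctggaATTTAttataagaat

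The values called normalized counts proved to be model values of a DESeq2 fit by the authors, not observed counts. Their log2 values were fully described by a term for the condition and a term for the replicate number, with a remaining SD over genes of 1.71e-15. They carry no observed scatter of the replicates. Every fold change between conditions is the same at replicate numbers 1, 2 and 3 by construction, and a direction shared by the 3 replicates is no support. The level of a gene in a library was its fitted value divided by the size factor of the library, and its level in a condition was the geometric mean over 3 libraries. A log2 fold change compares a pair of such levels. It is given with the standard error (SE) of the same gene from the authors' DESeq2 comparison tables, which rests on the 3 libraries per condition. The ratio of fold change to SE gave a two-sided Wald p, which was adjusted by the Benjamini-Hochberg method over every gene whose fitted values averaged 10 or more after scaling, with a threshold of 0.05. A 95% interval is the fold change plus and minus 1.96 SE. The model shrinks fold changes towards 0, so that the sizes given here understate the unshrunken ones. Footprints count ribosomes on all mRNA copies of a gene, so that less mRNA, fewer ribosomes per mRNA, and fewer cells that express the gene cannot be told apart. Reads with up to 2 alignments were kept by the authors, and how far related phosphatase genes share footprints was not tested.

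Per library, the fitted values added up to between 2570328 and 12804710, and the size factors lay between 0.415 and 2.12. Zfp36, which encodes TTP and also collects footprints of the constructs, had a level of 459 with GFP, 927 with GFP-TTP and 1535 with the mutant. It was higher in GFP-TTP-AA than in GFP-TTP by a log2 fold change of 0.73 (SE 0.25, adjusted p = 0.0395, Wald test with DESeq2 SEs), so that the conditions differed in the footprints on Zfp36 as well as in the TTP sequence. The GFP line has no TTP construct, and how much of each level came from the constructs was not tested. By western blot, the study reports that GFP-TTP and GFP-TTP-AA proteins reached a similar extent, so the footprints do not show a different amount of protein. All 6 macrophage markers of a fixed list that were in the table had levels between 2292 and 71365. Of 12 listed markers of T cells, B cells, neutrophils and fibroblasts, 7 were in the table and 6 of these stayed below 1 in every condition. The sum of the 7 lay between 24.0 and 42.4 in the GFP, 22.9 and 40.6 in the GFP-TTP and 46.6 and 85.1 in the GFP-TTP-AA libraries. Nearly all of it was S100a8, and its part in the results below was not tested.

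To compare the genes with each other, levels were divided by the length of the coding sequence. Dusp1 was the most abundant in GFP macrophages with a level of 1663 per 1000 coding nt, followed by Dusp4 with 1013 and Dusp6 with 498. A middle group was formed by Dusp5 (187), Dusp7 (169.9), Dusp2 (149.7) and Dusp16 (104.7), all per 1000 coding nt. Dusp10 with 16.2 and Dusp8 with 6.92 per 1000 coding nt were far lower. Of the nuclear, induced enzymes, Dusp1 and Dusp4 thus led this order, while Dusp5 and Dusp2 stood in the middle group below the cytoplasmic Dusp6. The JNK- and p38-directed enzymes Dusp16, Dusp10 and Dusp8 stood at the end of the order. In GFP macrophages the ranges over the 3 libraries overlapped between neighbours except between Dusp4 and Dusp6, Dusp16 and Dusp10, and Dusp10 and Dusp8. Dusp1 exceeded Dusp4 in 6 of the 9 libraries, those with replicate numbers 1 and 2. Dusp6 held place 3 in the GFP and GFP-TTP lines. In the GFP-TTP-AA line it stood at place 4, at 192 per 1000 coding nt against 214 for Dusp5, and the library ranges of this pair overlapped.

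**Figure D1:**
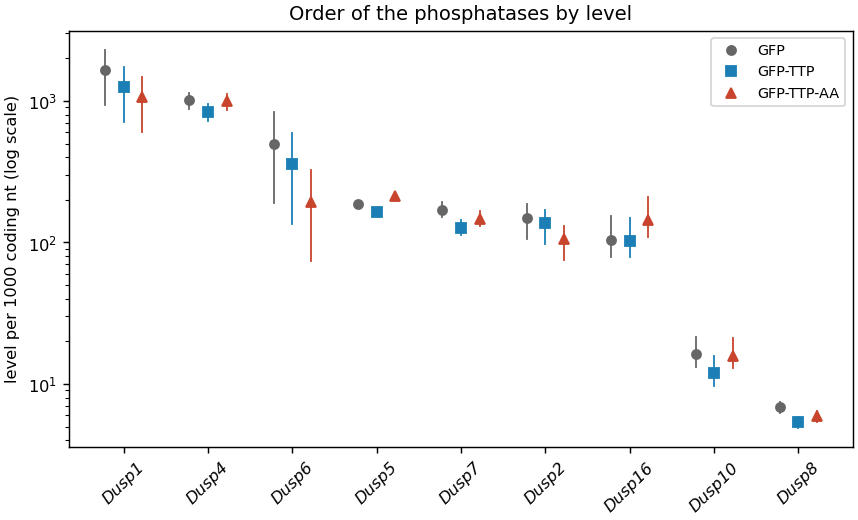
Footprint level per 1000 coding nt (y axis, log scale) of the 9 phosphatases (x axis, ordered by their level in GFP macrophages). Symbols are geometric means over 3 libraries of GFP (grey), GFP-TTP (blue) and GFP-TTP-AA (red), and lines run from the lowest to the highest library. Dusp1 and Dusp4 are at the top near 1000, and Dusp10 and Dusp8 lie lowest, the latter below 10 in every condition.

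In the comparisons between conditions, Dusp6 was lower in GFP-TTP-AA macrophages than in both other conditions, and no other member passed the threshold in any comparison. Of the 9 genes, 0 of 8 tested passed the threshold in GFP-TTP against GFP (Wald test with DESeq2 SEs), where 2.1% of the 9938 genes tested did, 0.815% as higher and 1.29% as lower. At an unadjusted p under 0.05 there were 2 of the 8, Dusp6 and Dusp7, against 11.3% of all genes tested. All 8 log2 fold changes were below 0, against 49.3% of all genes tested, with a median of -0.34 against 0.00 over all genes tested. In GFP-TTP-AA against GFP, 1 of 9 genes was lower and 0 were higher, against 1.28% lower and 1.74% higher of the 10103 genes tested (3.02% together). An unadjusted p under 0.05 was found for 4 of the 9 (Dusp1, Dusp2, Dusp6 and Dusp16), against 14.2% of all genes. Of the 9 log2 fold changes 7 were below 0, against 49.2% of all genes tested, with a median of -0.21. In GFP-TTP-AA against GFP-TTP, again 1 of 9 was lower and 0 were higher, against 4.66% lower and 5.59% higher of all genes tested (10.3% together). The unadjusted p was under 0.05 for 2 of the 9, Dusp6 and Dusp16, against 22.1% of all genes. In this comparison 6 of the 9 were above 0, with a median of 0.21. Below 0 were 3 (Dusp1, Dusp2 and Dusp6), against 49.6% of all genes tested. The comparisons share libraries, so that the counts are not independent of each other. By motif, the 3 genes with TATTTAT (Dusp1, Dusp2 and Dusp8) had log2 fold changes of -0.65, -0.50 and -0.21 in GFP-TTP-AA against GFP, none past the threshold. Of the genes without TATTTAT, Dusp6 had -1.37. The others had -0.02 (Dusp4), 0.20 (Dusp5), -0.21 (Dusp7), -0.03 (Dusp10) and 0.45 (Dusp16), and a relation to the motif was not tested.

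**Figure D2:**
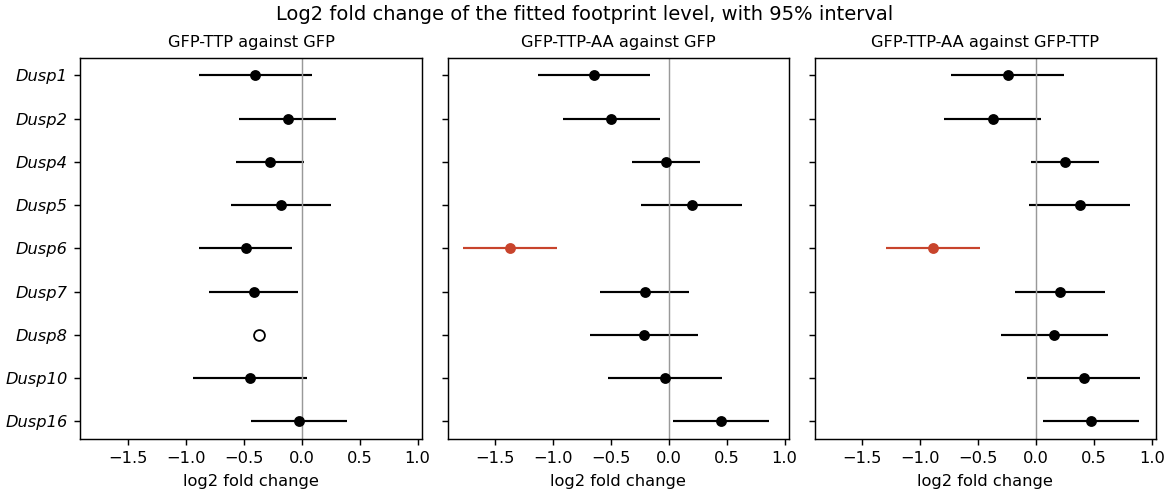
Log2 fold change of the footprint level (x axis) of the 9 phosphatases (y axis) in GFP-TTP against GFP (left), GFP-TTP-AA against GFP (middle) and GFP-TTP-AA against GFP-TTP (right), with bars of 1.96 SE. Red marks an adjusted p of at most 0.05, and the open circle of Dusp8 has no SE. Dusp6 is red at -1.37 and -0.89, and all points of the left panel lie below 0.

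Dusp6, the cytoplasmic ERK phosphatase, fell with GFP-TTP-AA. The gene (ENSMUSG00000019960) is annotated at chr10:99263231-99267489 (GRCm38, plus strand) and shares no exon positions with another annotated gene. Its levels in the libraries with replicate numbers 1, 2 and 3 were 951, 891 and 218 in GFP macrophages. With GFP-TTP they were 682, 637 and 155, and with GFP-TTP-AA 369, 343 and 84.0. At each replicate number the order was GFP, GFP-TTP, GFP-TTP-AA, but the fitted values make this order the same by construction, and the 3 conditions overlapped because the libraries with number 3 were low in each. The level in the condition fell from 569 in GFP to 219.9 in GFP-TTP-AA macrophages, which is 2.59-fold lower (log2 fold change -1.37, SE 0.21, 95% interval -1.78 to -0.97, adjusted p = 1.9e-08, Wald test with DESeq2 SEs). Only 0.0297% of the 10103 genes tested had a lower fold change.

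Dusp6 also fell from 407 in GFP-TTP to 219.9 in GFP-TTP-AA macrophages, which is 1.85-fold lower. These lines differ in the phosphorylation sites of TTP, but also in their footprints on Zfp36 and as separately sorted lines. The comparison cannot tell these differences apart. The log2 fold change was -0.89 (SE 0.21, 95% interval -1.30 to -0.48, adjusted p = 0.00068, Wald test with DESeq2 SEs). Between GFP-TTP and GFP macrophages the log2 fold change of Dusp6 was -0.48 (SE 0.21, 95% interval -0.89 to -0.08, unadjusted p = 0.0187, adjusted p = 0.287), which did not pass the threshold. Dusp6 lies on chromosome 10, whose tested genes shifted by a median of -0.12 (log2) in GFP-TTP against GFP, 0.04 in GFP-TTP-AA against GFP and 0.17 in GFP-TTP-AA against GFP-TTP, all smaller in size than the values of Dusp6. From its SE, the part of the Dusp6 change that shrinkage left was estimated as either 21.9% or 78.1% in GFP-TTP-AA against GFP. An SE of this size has both solutions when the largest SE of all genes (0.250) is taken as that of a gene that keeps 50% of its change. The lower solution is typical of genes with few footprints, since the median SE peaked at 0.248 for fitted means of 20 to 50. Dusp6 had a fitted mean of 481, well above that range, where the higher solution is the usual one. Which solution holds for Dusp6 itself was not tested.

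**Figure D3:**
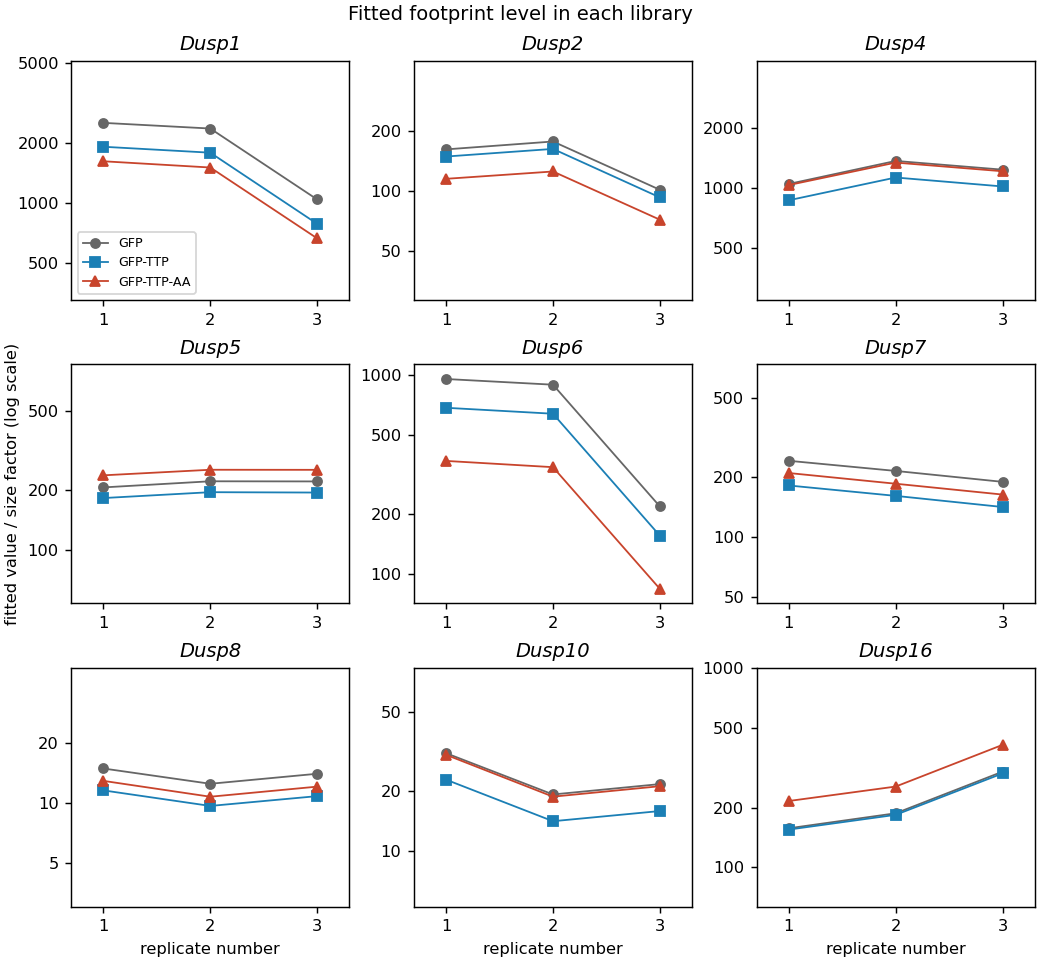
Fitted footprint level (y axis, log scale) by replicate number (x axis) in GFP (grey circles), GFP-TTP (blue squares) and GFP-TTP-AA (red triangles) macrophages, 1 panel for each phosphatase. Lines join libraries of 1 condition, and they run parallel because the values are fitted. Dusp6 falls from between 343 and 951 at numbers 1 and 2 to between 84.0 and 218 at number 3, while Dusp16 is highest at number 3.

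Dusp1 (ENSMUSG00000024190) is a nuclear phosphatase of p38 and JNK. Its transcript with the longest coding sequence has 4 exons at chr17:26505590-26508519 (GRCm38, minus strand), and other annotated Dusp1 exons share positions with Ergic1 on the opposite strand. Dusp1 had levels of 2514, 2355 and 1037 in the GFP libraries. They were 1907, 1781 and 783 in the GFP-TTP and 1612, 1500.3 and 661 in the GFP-TTP-AA libraries. The conditions overlapped, again with the libraries of number 3 lowest. The condition levels were 1831, 1385 and 1169.6. The log2 fold change was -0.65 in GFP-TTP-AA against GFP (SE 0.25, 95% interval -1.13 to -0.16, unadjusted p = 0.0093), and with an adjusted p of 0.142 it did not pass the threshold. It was -0.40 in GFP-TTP against GFP (SE 0.25, adjusted p = 0.575) and -0.24 in GFP-TTP-AA against GFP-TTP (SE 0.25, 95% interval -0.73 to 0.24, adjusted p = 0.621). These SEs were large for a gene with so many footprints. In GFP-TTP-AA against GFP-TTP, the 1408 genes with a fitted mean between 0.5 and 2 times that of Dusp1 had a median SE of 0.139, and 98.5% of them had a smaller SE than Dusp1. The mean of the observed normalized counts of Dusp1 was 1.12 times the fitted mean, a ratio larger than that of 98.5% of the kept genes. For Dusp6 the corresponding ratio was 1.11, larger than in 98.3% of the kept genes. The fitted mean thus stood further from the observed mean for Dusp1 and Dusp6 than for the 7 other phosphatases, whose ratios lay between 0.996 and 1.02. A ratio of means does not measure how far the fit lay from the counts of single libraries. The part of the Dusp1 change that was kept after shrinkage was estimated as either 44.1% or 55.9% in GFP-TTP-AA against GFP.

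**Figure D4:**
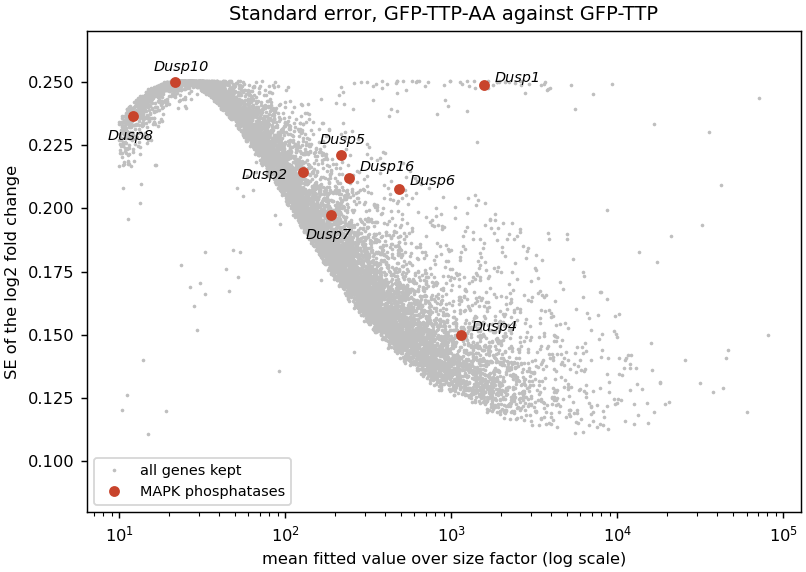
SE of the log2 fold change in GFP-TTP-AA against GFP-TTP (y axis) against the mean fitted value over the size factor (x axis, log scale) for all genes kept (grey) and the 9 phosphatases (red). The SE has a ceiling of 0.250 and falls again for genes with few footprints because of the shrinkage. Dusp1 lies at 0.249 although most genes of its level are near 0.139, and Dusp6 at 0.208 is also above most genes of its level.

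None of the 3 other nuclear enzymes passed the threshold in any comparison. Dusp2, an ERK and p38 phosphatase of immune cells, had levels of 161.9, 177.4 and 101.5 in the GFP, 149.1, 162.8 and 92.9 in the GFP-TTP and 115.2, 125.4 and 71.8 in the GFP-TTP-AA libraries. The conditions overlapped, with number 3 lowest in each. Its log2 fold change in GFP-TTP-AA against GFP was -0.50 (SE 0.21, 95% interval -0.92 to -0.08, unadjusted p = 0.0202, adjusted p = 0.220), which did not pass the threshold. In GFP-TTP-AA against GFP-TTP it was -0.37 (SE 0.21, adjusted p = 0.299), and in GFP-TTP against GFP it was -0.12 (SE 0.21, adjusted p = 0.894). Dusp4, which acts on ERK and JNK, had library levels between 868 and 1367. Its log2 fold changes were -0.28 in GFP-TTP against GFP, -0.02 in GFP-TTP-AA against GFP and 0.25 in GFP-TTP-AA against GFP-TTP, with SEs of 0.15, the smallest among the 9 genes. The 95% interval for Dusp4 in GFP-TTP-AA against GFP ran from -0.32 to 0.27. It belongs to the shrunken fold change and does not bound the unshrunken one. Dusp5, a nuclear ERK phosphatase, had library levels between 181.8 and 252 and log2 fold changes of -0.18, 0.20 and 0.38 in the same order (SE 0.22 each). An annotated antisense gene on the opposite strand shares exon positions with Dusp5, and how strand was used in counting is not given in the sources used here.

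Dusp7, the cytoplasmic relative of Dusp6, had levels of 215 with GFP, 161 with GFP-TTP and 186 with the mutant. Its log2 fold change in GFP-TTP against GFP was -0.42 (SE 0.20, 95% interval -0.80 to -0.03, unadjusted p = 0.0345), with an adjusted p of 0.375. In the mutant it was -0.21 (SE 0.20) against GFP and 0.21 (SE 0.20) against GFP-TTP, whereas Dusp6 had -1.37 and -0.89. The difference between Dusp6 and Dusp7 was not tested. Dusp9, the third cytoplasmic ERK phosphatase, belonged to a fixed list of other MAPK phosphatases and was higher in GFP-TTP-AA against GFP macrophages, at a level of 49.9 against 28.7 (log2 fold change 0.80, SE 0.25, adjusted p = 0.0409, Wald test with DESeq2 SEs). This call was lost when the median of the X chromosome was subtracted.

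Among the phosphatases of JNK and p38, Dusp16 had the highest footprint levels. They were 157.3, 187.1 and 303 in the GFP libraries, 155.0, 183.8 and 297 in the GFP-TTP libraries and 216, 255 and 413 in the GFP-TTP-AA libraries. Here number 3 was highest in each condition, and the conditions overlapped. The log2 fold change of Dusp16 was 0.45 in GFP-TTP-AA against GFP (SE 0.21, 95% interval 0.03 to 0.86, unadjusted p = 0.0339, adjusted p = 0.288) and 0.47 against GFP-TTP (SE 0.21, 95% interval 0.06 to 0.89, unadjusted p = 0.0250, adjusted p = 0.148). Neither value passed the threshold. Between GFP-TTP and GFP its log2 fold change was -0.03 (SE 0.21), and this value turned to 0.026 when the median of its chromosome was subtracted. Dusp10 had library levels between 14.1 and 31.0 and log2 fold changes of -0.45 in GFP-TTP against GFP, -0.03 in GFP-TTP-AA against GFP and 0.41 in GFP-TTP-AA against GFP-TTP (SE 0.25 each). Dusp8 had library levels between 9.67 and 14.9. It had no SE in GFP-TTP against GFP, where its fold change of -0.37 is a value without a test, and its log2 fold changes of -0.21 and 0.16 in the other comparisons had SEs of 0.24. With these SEs a log2 fold change of the size of that of Dusp16 would not pass the threshold.

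The replicate number, which stands for the library date in the authors' model, moved several of the phosphatases more than the condition did. Dusp6 had geometric mean levels of 621, 579 and 141.7 at replicate numbers 1, 2 and 3, a 4.38-fold range, while its conditions spanned a range of 1.37 on the log2 scale. On the log2 scale the replicate range was 2.13, and 6 of the 10103 kept genes had a larger one. Number 3 differed from the mean of numbers 1 and 2 by -2.08 on the log2 scale, and 1 kept gene had a lower difference. For Dusp1 the levels at numbers 1, 2 and 3 were 1977, 1846 and 813, with a difference of -1.23 at number 3, and 7 kept genes had a lower difference. Dusp2 had 140.6, 153.6 and 87.8, with a difference of -0.74. Dusp16 went the other way with 173.9, 206 and 333, a difference of 0.82 that was larger than in 99.3% of the kept genes. Across the family 6 of 9 genes had a larger range over replicate numbers than over conditions, against 53.5% of the kept genes. Over all kept genes the median difference at number 3 was 0.00, and over the 15 kept kinases of the MAPK cascade it was 0.03, with values between -0.39 and 0.33. Over the 9 phosphatases it was -0.17, with 5 lower and 4 higher. Drops at number 3 were also seen outside the family. Of the 9 kept ERK output genes 7 were lower there, against 5119 of the 10103 kept genes. The ERK output genes had a median of -0.26, with values between -0.91 (Fos) and 0.48 (Fosl1). Of the 6 macrophage markers 4 were lower, with a median of -0.15. No error is given for these replicate-number terms, and what set the libraries with number 3 apart was not tested. The fits that leave out number 3 could not be made from fitted values, so that the calls for Dusp6 have no check without these libraries.

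**Figure D5:**
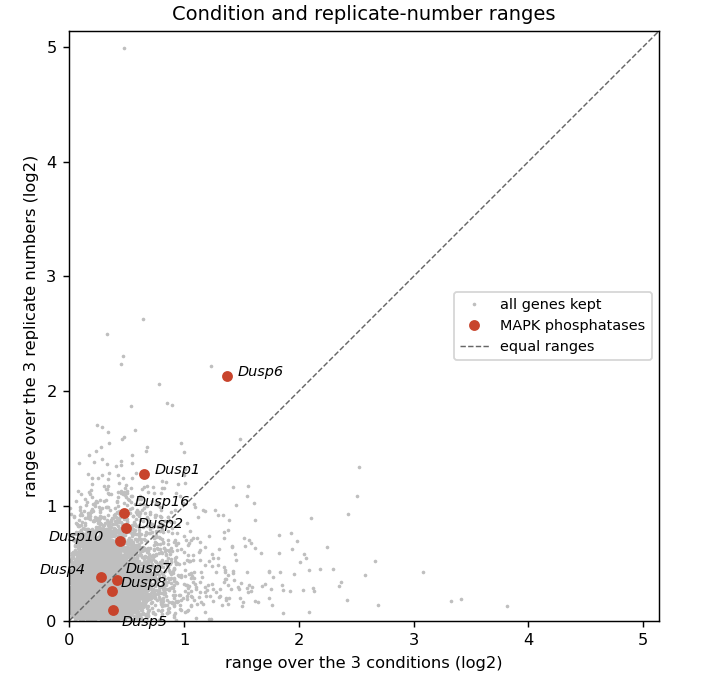
Range over the 3 replicate numbers (y axis, log2) against the range over the 3 conditions (x axis, log2) for all genes kept (grey) and the 9 phosphatases (red). The dashed line marks equal ranges. Dusp6 at 1.37 and 2.13 and Dusp1 at 0.65 and 1.28 lie above the line, and Dusp5 lies below it.

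The genes whose pattern over the 9 libraries was nearest to that of Dusp1 were Jun, Fos and Klf10. Likeness was measured as the root mean square distance of mean-centred log2 levels, which was 0.15 for Jun, 0.19 for Fos and 0.20 for Klf10. For Dusp6 the nearest were Jun (0.50), Sema4c (0.51) and Dusp1 (0.51), which is a looser match on the same scale. All these distances contain the replicate-number term that the 9 libraries share.

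Of the wider pathway, 15 kinases of the MAPK cascade (ERK, JNK and p38 kinases and the kinases that activate them) were tested in each comparison, and 0 passed the threshold in any of the 3 (Wald test with DESeq2 SEs). At an unadjusted p under 0.05 there was 1 in each comparison. Their median log2 fold change was -0.13 in GFP-TTP against GFP, -0.03 in GFP-TTP-AA against GFP and 0.07 in GFP-TTP-AA against GFP-TTP. In the same order, 2.1%, 3.02% and 10.3% of all genes tested passed the threshold. The shares with an unadjusted p under 0.05 were 11.3%, 14.2% and 22.1%. With so few genes in this list and the lists below, such counts do not show that the wider pathway was unchanged. Of the 9 atypical dual-specificity phosphatases tested, which lack the kinase-binding domain of the members, 0 passed the threshold and 0 had an unadjusted p under 0.05 in any comparison. Of the 4 Sprouty and Spred genes, which restrain Ras signalling, 0 passed the threshold, and Spred1 had an unadjusted p under 0.05 in both comparisons with the mutant. Of 5 other MAPK phosphatases, 1 (Dusp9) passed it in GFP-TTP-AA against GFP and 0 in the other comparisons, where 1 each had an unadjusted p under 0.05. Of 9 tested genes known as outputs of ERK, 1 was higher and 1 was lower in GFP-TTP-AA against GFP. Fosl1, an AP-1 subunit, was higher by a log2 fold change of 0.92 (SE 0.17, adjusted p = 3.3e-05, Wald test with DESeq2 SEs), and by 0.80 in GFP-TTP against GFP (SE 0.17, adjusted p = 0.00058). Ier3, an immediate early gene, was lower by a log2 fold change of -1.20 in GFP-TTP-AA against GFP (SE 0.16, adjusted p = 2.3e-10) and of -0.82 against GFP-TTP (SE 0.16, adjusted p = 3.6e-05). Ccnd1, which encodes cyclin D1, was lower in GFP-TTP-AA against GFP-TTP (log2 fold change -0.55, SE 0.19, adjusted p = 0.0396).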

How the data were processed

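RiboSeq data of 9 libraries were used, 3 for each of the 3 transduced lines, grouped by the sample labels. Per the labels and the methods of the study, ribosome-protected fragments were prepared with the ARTseq kit, trimmed with Trim Galore, mapped with TopHat2 (2.0.12 per the submitters' processing notes) to mm10/GRCm38 with up to 2 alignments per read, counted with HTSeq, and fitted with DESeq2 (1.6.3) with library date and condition as terms. The deposited signal values of the normalized table are this model's fitted values, not observed counts, and are not divided by size factors. From the authors' comparison tables only the SE of the log2 fold change and the mean normalized signal (observed mean over libraries) were taken. Their fold changes, statistics and p-values are the authors' comparisons and were not used. The tests here still rest on the authors' fitted values and the authors' SEs. They largely rebuild the authors' own Wald comparisons and are no independent check of them.

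Size factors were recomputed from the fitted values by the median of ratios over genes with a mean fitted value of 10 or more, and the 10103 genes that averaged 10 or more after scaling were kept. Calculations were made in Python 3.11.15 with numpy 2.4.6, pandas 2.3.3 and scipy 1.17.1. The Wald procedure was run on simulated data whose noise was drawn from the same SEs, without shrinkage. That run checks the calculation only and could not test whether the SEs suit these data. Read totals were not analysed here, so depth limits the results through the SEs only. Motifs and coordinates were taken from GENCODE vM21 on GRCm38. All 9 phosphatases are named. Zfp36 is named as a check of the labels, list genes where they passed the threshold (at most 3 per list and comparison), and for Dusp1 and each called phosphatase the 3 genes with the nearest pattern. Spred1, Etv5 and Mapk13, and Fos for its replicate-number term, fall outside this rule and were named after their values were seen. The members and gene lists were chosen with earlier results of these data known. The series text calls the replicates biological, but nothing says whether they came from separate cultures, so that p-values may measure technical spread only. Protein sequences were not used here. Single genes of the MAPK cascade list with only an unadjusted p under 0.05 are counted and not reported by name here.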

Additional observations from a re-analysis of the deposited data

How the results depend on the processing

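No paired analysis was possible because the table holds fitted values that already contain the replicate-number term, and leaving out single replicates was not run for the same reason. The alternatives were recentring on the median of all tested genes, subtracting the chromosome median, a pseudocount of 1 or 10, adjustment over the 3 comparisons together, no filter, a fitted mean of at least 50, and scaling to the sum of fitted values, which was chosen after seeing the data. Dusp6 kept its direction and its call in both comparisons with GFP-TTP-AA under all of these that have a test, with log2 fold changes between -1.41 and -1.33 against GFP and between -1.06 and -0.86 against GFP-TTP, pseudocounts included. No other member passed the threshold in any of them. Of the members' fold changes under an alternative, 204 kept their direction and their side of the threshold or stayed within 1 SE, and 1 reversed: Dusp16 in GFP-TTP against GFP was 0.026 after subtraction of the chromosome median. Most of this was fixed in advance. Joint adjustment and the changed filters leave a fold change as it is, and recentring in GFP-TTP-AA against GFP moved it by only 0.0044. The count of 204 is therefore no measure of robustness. The numbers of genes called changed by less than 1.5 times throughout. Among the list genes, the call for Dusp9 was lost with the chromosome median subtracted (0 called) and was not tested at a mean of at least 50. The call for Ccnd1 was lost with joint adjustment, leaving 1 ERK output (Ier3) in GFP-TTP-AA against GFP-TTP. Etv5 was gained as an ERK output in GFP-TTP-AA against GFP (3 called instead of 2) with the chromosome median subtracted, with joint adjustment and with scaling to the sum. Without a filter 1 cascade kinase, Mapk13, was added in GFP-TTP-AA against GFP-TTP. The motif counts were equal in the transcript with the longest coding sequence.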
